A study of Homo sapiens with 9 samples.

Results

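The proteasome genes followed here were the protein-coding rows of the deposited table whose symbol begins with PSMA to PSMG and a number, the family that names the subunits, activators, inhibitor and assembly chaperones of the proteasome. The table held 62710 genes, of which 50 fit that pattern and 45 had a mean of at least 10 normalized counts over the 9 libraries. Those 45 genes were among the 15230 genes tested. RNA-seq had been run on A375R, a human melanoma cell line resistant to the BRAF inhibitor PLX4032, after 2 h in 1 of 3 treatments with 3 biological repeats each. The treatments were DMSO (the vehicle control, labelled WT with no dose in the sample titles), 10 µM VHL-r and 10 µM R4VPL3-1. VHL-r is the moiety that binds the ubiquitin ligase VHL, and R4VPL3-1 joins it through a linker to a ligand of the ubiquitin ligase RNF4, so that the molecule resembles a PROTAC. The compounds were compared at matched dose and time, 1 pair in all. Each group is the same cell line, and the labels name no clone. The same time point for DMSO is read from the study's methods, since the DMSO sample titles give no time. The column headers name 2 h for DMSO replicates 2 and 3 and not for replicate 1. The study's methods give 2 µM PLX4032 in the medium in which A375R were cultured, so this inhibitor would be common to all groups, though the labels do not name it.

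The proteasome is the protease that degrades proteins tagged with ubiquitin, and it is the machine through which a PROTAC removes its target. Its core particle is a barrel of outer alpha rings and inner beta rings, of which PSMB5, PSMB6 and PSMB7 carry the catalytic sites and can be exchanged for the interferon-inducible PSMB8, PSMB9 and PSMB10. The regulatory particle has a base of ATPases (PSMC genes) that unfold the substrate, a scaffold with ubiquitin receptors, and a lid whose subunit PSMD14 removes the ubiquitin chain. When proteasome capacity falls short, cells are known to raise transcription of nearly the whole family through the factor NRF1 (gene NFE2L1), which binds antioxidant response elements in the promoters after the protease DDI2 and the glycanase NGLY1 have processed it. The question followed here was whether the family moved after the degrader or after its VHL-binding part.

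The promoters were searched for the elements known from this response. The RefSeq table of promoters (GRCh38.p14, 250 bases before to 50 after the gene start) matched 39 of the 45 genes. The core of the antioxidant response element, TGACNNNGC on either strand, was present in 12 of the 39, or 30.8%. It was present in 13.6% of 27305 promoters in the table and in 15.2% of the 10947 promoters of tested genes. The box CCAAT, on either strand, was in 48.7% of the 39 promoters against 36.8% of those of tested genes. The heat shock element, searched as GAANNTTC or TTCNNGAA, which each read the same on both strands, was in 3 of the 39 (7.7%) against 10.3%. A match is a description of letters, not of binding. Windows are printed for PSMD12, called in the later results, and for PSMD5, PSMB9, PSMB3 and PSMD3, which were not called. Each is shown with the motif in capitals and its position counted from the gene start. PSMD3 had a further motif at 33, not printed. Of the other genes called later, PSME3 had no antioxidant response element core in its window, and PSMG3 was not among the 39. The last window is that of ZFAND2A, which is no member of the family and was chosen after its values were seen.
PSMD12 (lid subunit), chr17:67366724-67366752, minus strand, motif at -165: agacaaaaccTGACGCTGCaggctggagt
PSMD5 (chaperone of the base), chr9:120843038-120843066, minus strand, motif at -134: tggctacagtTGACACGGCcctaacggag
PSMB9 (inducible beta subunit), chr6:32854034-32854062, plus strand, motif at -148: gggcggggctGCCTCGTCActtgtctcgg
PSMB3 (beta ring), chr17:38752627-38752655, plus strand, motif at -104: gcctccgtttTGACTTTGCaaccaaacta
PSMD3 (lid subunit), chr17:39980760-39980788, plus strand, motif at -37: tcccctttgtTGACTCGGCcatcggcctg
ZFAND2A (heat shock element), chr7:1160350-1160377, minus strand, motif at -171: gaccggacacTTCGAGAAgggaagtgga

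The libraries held between 26435568 and 32085626 reads, and the deposited values were reads divided by a size factor between 0.934 and 1.101, called normalized counts here. The 3 replicates of a group are separate biological repeats, as the study's methods state. Of the melanocyte lineage markers, SOX10 had a mean of 12050 normalized counts, DCT 1277, S100A1 2073, MITF 1260 and S100B 683. PMEL was at 30.5 and TYRP1 at 6.38, while MLANA and TYR were at or near 0 (means of 0 and 0.35). Of the markers of dedifferentiated melanoma, AXL had a mean of 10164, NGFR 988, EGFR 520 and SOX9 15.2. SOX10 itself ranged from 17007 to 17935 in DMSO, from 9133 to 11216 in VHL-r and from 7900 to 8752 in R4VPL3-1. MITF ranged from 1497 to 1994 in DMSO, from 983 to 1136 in VHL-r and from 893 to 1235 in R4VPL3-1. The leukocyte marker PTPRC had a mean of 4.62, the endothelial marker PECAM1 5.88. Of the epithelial markers, EPCAM had a mean of 5.82 and KRT5 17.4, while KRT14 had 295 and KRT8 414. Whether a change in a bulk library came from fewer cells of a kind or from less RNA per cell cannot be told apart.

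Of the 50 genes, 5 were below the mean of 10 and were not tested. PSMA2 and PSMA6 of the alpha ring are needed in every proteasome, yet PSMA2 was listed at 0 in all 9 libraries and PSMA6 had a mean of 1.34. In GENCODE release 44, 100% of the canonical transcript of PSMA2 and 81.4% of that of PSMA6 lie on exons of an unnamed protein-coding gene on the same strand, where htseq-count assigns a read to neither gene. PSMD9, a chaperone of the base, was listed at 0 in all libraries although it shares 28.8% of its canonical bases in this way and has 1941 of 2725 to itself. The testis subunit PSMA8 was also at 0 in all libraries, and the thymic subunit PSMB11 had a mean of 0.204. Among the tested genes PSMA1 shares 67.0% and PSMB10 56.1% of their bases, so their counts stand for the remaining bases. Windows of 100 bases, the length of a read, that also occur in a transcript of another gene made up 96.8% of the canonical transcript of the ATPase PSMC1, 55.2% of PSMA1, 49.0% of PSMC3IP, 42.2% of the lid subunit PSMD7 and 40.0% of PSMB10. The values of these 5 genes are uncertain for that reason. A further pair of tested genes, PSMC3IP and PSME3IP1, carries the name pattern but encodes no part of the proteasome, which left 43 proteasome genes, of which 29 were constitutive core or regulatory particle subunits.

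As a whole, the family kept close to its DMSO level in both treatments. The 45 genes summed to 233407, 230740 and 224092 normalized counts in the DMSO libraries. They summed to 220747, 227136 and 228446 in VHL-r and to 221853, 227702 and 225006 in R4VPL3-1. The group means were 229413 ± 4797 (SD, n = 3), 225443 ± 4119 and 224854 ± 2927, and the lowest DMSO library lay below the highest library of either compound. As a share of all normalized counts the family took 0.803% ± 0.0082 (SD, n = 3) in DMSO, 0.797% ± 0.012 in VHL-r and 0.791% ± 0.0063 in R4VPL3-1. By this share the R4VPL3-1 libraries, at 0.784%, 0.7948% and 0.795%, lay below all DMSO libraries, of which the lowest was at 0.7952%, while VHL-r overlaps both.

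**Figure D1:**
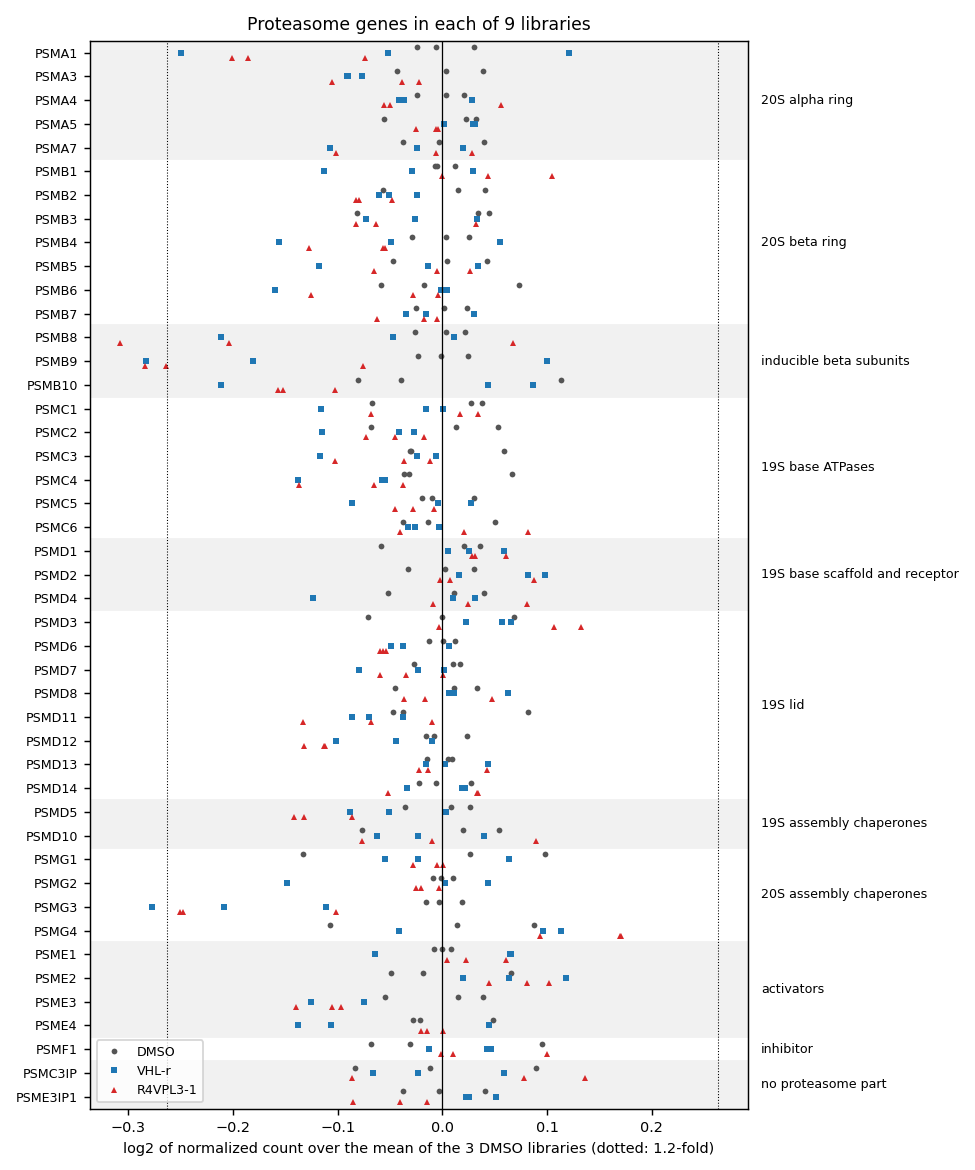
Log2 of the normalized count of each of the 45 tested genes over the mean of its 3 DMSO libraries, with 1 point per library, grouped by role. Most points lie close to 0 in all 3 treatments, and the dotted lines mark a 1.2-fold difference.

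R4VPL3-1 against DMSO asked what the full molecule did to the family. The 3 genes that passed the test all fell, by less than 1.2-fold each. They were PSMG3, PSMD12 and PSME3. Over all 15230 genes, limma called 13.1% higher and 11.8% lower, with a threshold of 0.05 on the p adjusted over all genes. In the family it called 0 of 45 higher and 3 of 45 lower, or 6.67%, both under the share of all genes. At an unadjusted p under 0.05 the counts were 0 higher and 4 lower, and edgeR and DESeq2 on recovered reads also called 0 higher. The fold changes of the 45 genes ran from -0.21 to 0.15 on the log2 scale with a median of -0.026, and 31 of the 45 were below 0. Over all genes the median was -0.0063, and 7842 of 15230 were below 0.

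VHL-r against DMSO asked what the VHL-binding part did alone, and here PSMG3 was the gene that passed. Over all genes limma called 10.3% higher and 9.51% lower, and in the family 0 higher and 1 lower (2.22%). Unadjusted, 0 genes were higher and 2 lower at p under 0.05, and edgeR and DESeq2 called 0 higher. The log2 fold changes ran from -0.20 to 0.067 with a median of -0.027 against -0.0045 for all genes, and 33 of the 45 were below 0, beside 7806 of all 15230 genes. Both contrasts use the same 3 DMSO libraries.

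R4VPL3-1 against VHL-r is the comparison of the compounds, which differ by the linker and the RNF4 ligand. Limma called 1.14% of all genes higher and 0.729% lower, and 0 of the 45 genes in either direction. The count at an unadjusted p under 0.05 was also 0 in either direction, as were the calls of edgeR and DESeq2. The fold changes lay between -0.11 and 0.088 on the log2 scale, with a median of -0.0003 that ranged from -0.021 to 0.014 over the alternatives.

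Since a gene that misses the threshold has not been shown to be level, the intervals of the differences were read as well. No member differed by more than 1.2-fold in any of the 3 contrasts, whereas 30.1% of all genes did in R4VPL3-1 against DMSO, 27.1% in VHL-r against DMSO and 13.1% in R4VPL3-1 against VHL-r. The whole 95% interval lay within 1.2-fold in either direction (a log2 fold change of 0.263) for 39, 41 and 42 of the 45 genes in the same order. For all genes that share was 37.2%, 39.8% and 50.5%, beside 86.7%, 91.1% and 93.3% of the family. All 45 intervals were within 1.5-fold in each contrast. The family is also read more precisely than most genes: the median spread of replicates was 0.053 on the log2 scale, against 0.10 over all genes. The shares of all genes beyond or within 1.2-fold are those of a set with a wider median spread. How much of the difference from the family goes with that spread was not tested. No set of genes matched for level was compared. Among the 29 constitutive subunits, 28 had an interval within 1.2-fold in every contrast, and the exception was PSMA1, which had between 47.1 and 60.9 normalized counts in a library.

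**Figure D2:**
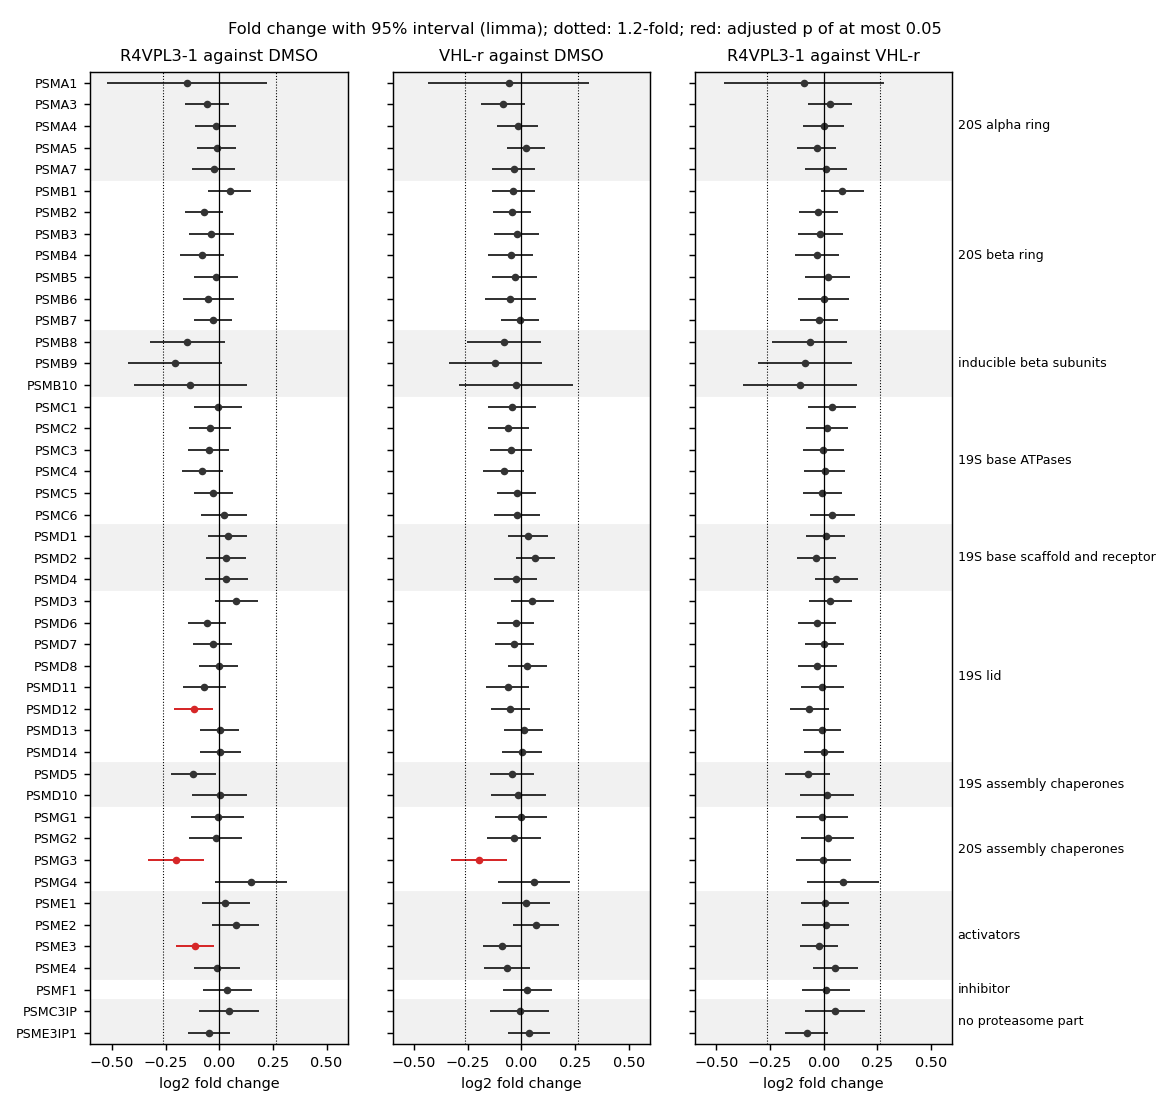
Log2 fold change of the 45 genes in the 3 contrasts, with 95% intervals from limma. Red marks an adjusted p of at most 0.05, reached by PSMG3, PSMD12 and PSME3 against DMSO for R4VPL3-1 and by PSMG3 for VHL-r, and the dotted lines mark 1.2-fold.

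**Figure D3:**
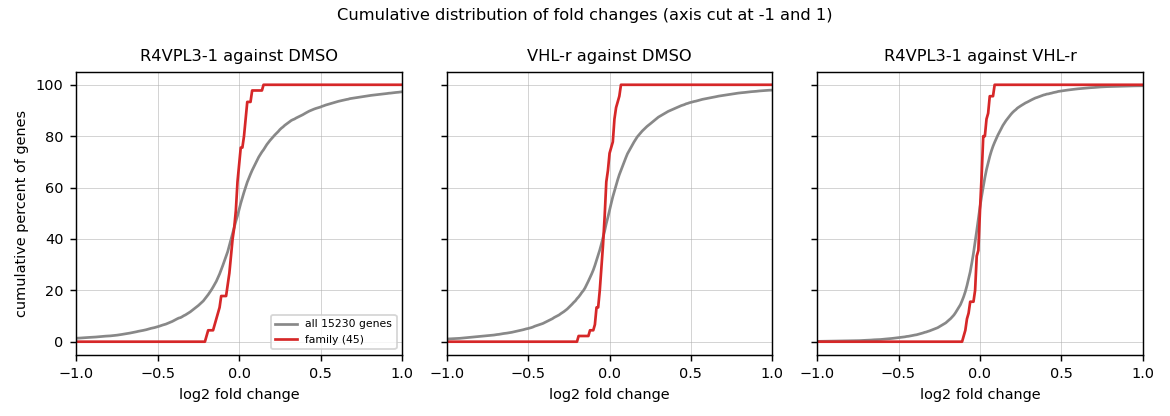
Cumulative percent of genes by log2 fold change for the 45 family genes (red) and all 15230 tested genes (grey), with the axis cut at -1 and 1. The red curves climb within 1.2-fold of 0 in each contrast, while 30.1% of all genes lie beyond 1.2-fold in R4VPL3-1 against DMSO.

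The catalytic subunits of the core were not called in any contrast. PSMB5, the site with chymotrypsin-like activity and the main target of proteasome inhibitors, had 4389.6, 4508 and 4236 normalized counts in the DMSO libraries, 4034, 4337 and 4482 in VHL-r, and 4184, 4457 and 4362 in R4VPL3-1. PSMB6, with caspase-like activity, had 2829, 3013 and 2748 normalized counts in the DMSO libraries, 2562, 2859 and 2871 in VHL-r, and 2625, 2855 and 2807 in R4VPL3-1. PSMB7, with trypsin-like activity, had 7883, 8004 and 7741 normalized counts in the DMSO libraries, 7687, 7791 and 8043 in VHL-r, and 7543, 7781 and 7845 in R4VPL3-1. The groups overlap for all 3 genes. The log2 fold change of PSMB5 was -0.014 (95% interval -0.114 to 0.085) in R4VPL3-1 and -0.032 (-0.132 to 0.068) in VHL-r. For PSMB6 it was -0.052 in each of the compounds, with intervals of -0.166 to 0.063 for R4VPL3-1 and -0.166 to 0.062 for VHL-r. For PSMB7 it was -0.028 and -0.007. In the rest of the beta ring, PSMB1, a structural subunit, had 4683, 4621 and 4626 normalized counts in the DMSO libraries, 4292, 4549.5 and 4739 in VHL-r, and 4643, 4786 and 4991 in R4VPL3-1. It held a log2 fold change of 0.049 in R4VPL3-1 against DMSO and 0.087 against VHL-r, and neither passed (limma adjusted p = 0.489 and 0.582).

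The inducible beta subunits had fitted values below DMSO in both treatments, and none was called. PSMB9, which replaces PSMB6, had 319, 324 and 329.6 normalized counts in the DMSO libraries, 266, 286 and 347 in VHL-r, and 266, 307 and 269.8 in R4VPL3-1. Its libraries overlapped between VHL-r and DMSO and did not between R4VPL3-1 and DMSO. The log2 fold change was -0.207 in R4VPL3-1 (SE 0.103, limma adjusted p = 0.155) and -0.121 in VHL-r (adjusted p = 0.476). PSMB8, which replaces PSMB5, had 965, 945 and 978 normalized counts in the DMSO libraries, 832, 932 and 969.9 in VHL-r, and 778, 836 and 1008 in R4VPL3-1. The third R4VPL3-1 library was the highest of all 9, while the other R4VPL3-1 libraries and the first of VHL-r were the lowest. Its log2 fold change of -0.148 had an adjusted p of 0.203 by limma, and -0.256 with an adjusted p of 0.0132 without R4VPL3-1 replicate 3, so that this library decided the call. PSMB10, which replaces PSMB7, had 139.8, 155 and 136 normalized counts in the DMSO libraries, 124, 148 and 153 in VHL-r, and 129, 129 and 134 in R4VPL3-1. The R4VPL3-1 libraries were below all DMSO libraries by a small margin, and VHL-r overlaps both. Its log2 fold changes were -0.134 and -0.025 against DMSO and -0.109 in R4VPL3-1 against VHL-r, the largest difference of any member between the compounds, with a limma adjusted p of 0.893. The sign of PSMB10 in VHL-r was not stable, from -0.081 to 0.067 over the alternatives.

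On a scale of normalized counts per 1000 bases that no other gene covers, PSMB9 and PSMB10 were among the lowest members and PSMB8 stood higher. PSMB8 had 815 ± 71.4 (SD, n = 9 libraries), above PSMD5, PSMG4, PSME4 and PSMC1. PSMB9 had 296.6 ± 30.0 (SD, n = 9 libraries), PSMB10 323 ± 26.0 and PSMF1, the inhibitor PI31, 294 ± 11.5, above PSMA1 at 136 ± 11.3. PSMA1 keeps 394 of 1195 bases to itself and PSMB10 429 of 977, and many of their windows also occur in another gene. The level and rank of both, and the ratio of PSMB7 to PSMB10 below, are therefore uncertain. At the top stood PSMB4, a beta subunit without catalytic activity, at 19884 ± 933, then PSMA7 of the alpha ring at 11930 ± 434, PSMB7 at 7940 and the ubiquitin receptor PSMD4 at 7172. The ranges of the 9 libraries did not touch between PSMB4, PSMA7 and PSMB7, while PSMB9 and PSMF1 at the lower end overlap. By role, the median level per 1000 bases was 5229 for the beta ring, 3790 for the ATPases, 3314 for the lid, 1519 for the alpha ring and 1032 for the chaperones of the core. These medians are no ranking of the roles by RNA. The alpha ring median covers 5 genes, without PSMA2 and PSMA6 and with PSMA1. It also depends on canonical transcript length, 4378 bases for PSMA4 and 3815 for PSMA5. In the beta ring that length ran from 762 (PSMB3) to 4426 (PSMB2). Of the ATPase PSMC1, 96.8% of windows also occur in a transcript of another gene. The level of PSMB6 per 1000 bases was 10.9 ± 0.60 times that of PSMB9 in DMSO, 11.5 ± 1.1 times in VHL-r and 12.2 ± 0.69 times in R4VPL3-1 (SD, n = 3). For PSMB7 over PSMB10 the ratios were 23.95 ± 1.3, 24.3 ± 2.3 and 25.8 ± 0.40, and for PSMB5 over PSMB8 they were 4.90 ± 0.23, 5.07 ± 0.13 and 5.40 ± 0.64. The ranges of each ratio overlap between DMSO and VHL-r, and so do those of DMSO and R4VPL3-1 for PSMB6 over PSMB9 and for PSMB5 over PSMB8. For PSMB7 over PSMB10 the highest DMSO library, 24.8, was under the lowest R4VPL3-1 library, 25.5.

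**Figure D4:**
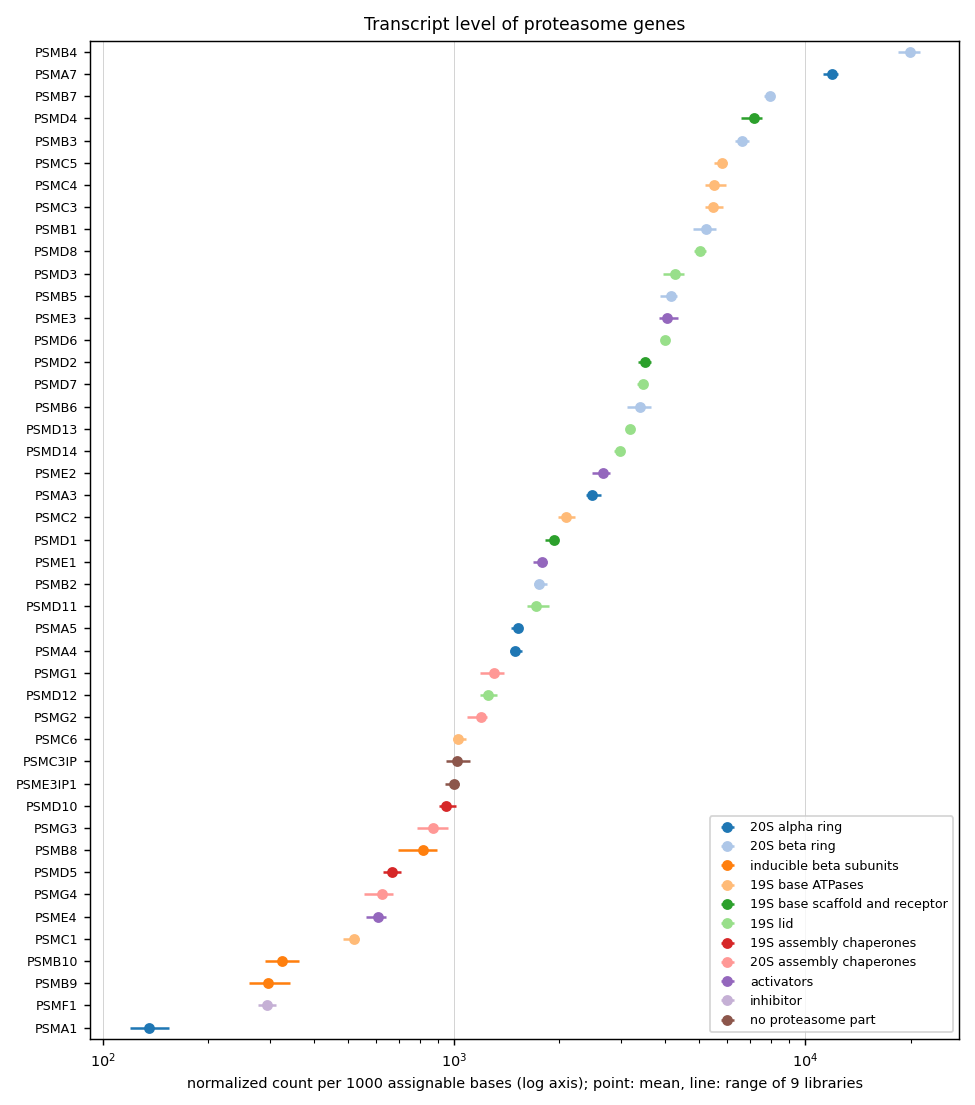
Normalized counts per 1000 assignable bases of the canonical transcript, on a log axis, for the 45 genes ordered by level and coloured by role. Points are means and lines the range of the 9 libraries, from PSMA1 at 136 to PSMB4 at 19884. The levels of PSMA1 and PSMB10 are uncertain, since another gene covers most of their bases.

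In the alpha ring, none of the 5 tested genes passed in any contrast. The member of largest fold change was PSMA1, with 57.2, 55.1 and 55.8 normalized counts in the DMSO libraries, 54, 60.9 and 47.1 in VHL-r, and 53.2, 48.8 and 49.2 in R4VPL3-1. It had a log2 fold change of -0.151 in R4VPL3-1 against DMSO with a wide interval of -0.520 to 0.219. It is the tested member with the fewest counts. PSMA3 had 2511, 2451 and 2372 normalized counts in the DMSO libraries, 2295, 2317 and 2296 in VHL-r, and 2379, 2271 and 2407 in R4VPL3-1, and no VHL-r library reached the lowest of DMSO. Its log2 fold change was -0.086 in VHL-r (limma adjusted p = 0.231) and -0.055 in R4VPL3-1 (adjusted p = 0.439).

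The regulatory particle held 1 of the 3 genes that fell. Of its base, all 6 ATPases and the 3 scaffold and receptor genes PSMD1, PSMD2 and PSMD4 stayed uncalled in every contrast. The log2 fold changes of the ATPases were between -0.079 and 0.021 in R4VPL3-1 and between -0.083 and -0.021 in VHL-r. The ATPase PSMC4 had 10486, 9794 and 9758 normalized counts in the DMSO libraries, 9098, 9617 and 9636 in VHL-r, and 9572, 9757 and 9103 in R4VPL3-1, with a log2 fold change of -0.079 in R4VPL3-1 and -0.083 in VHL-r (limma adjusted p = 0.212 and 0.216). The scaffold and receptor genes lay between 0.031 and 0.041 in R4VPL3-1. In the lid, PSMD12 was the member that fell. This gene (ENSG00000197170, chr17:67337916-67366605, minus strand, GRCh38) encodes the lid subunit Rpn5, and its promoter window is the first shown above. It had 5767, 5643 and 5615 normalized counts in the DMSO libraries, 5637, 5504 and 5288 in VHL-r, and 5249, 5179 and 5251 in R4VPL3-1. Every R4VPL3-1 library was below every library of the other treatments. The log2 fold change was -0.119 ± 0.041 (SE, n = 3 per group, limma adjusted p = 0.0398), and in VHL-r it was -0.052 (adjusted p = 0.444), while R4VPL3-1 against VHL-r gave -0.067 (adjusted p = 0.680), so the compounds were not shown to differ. The call was kept in 8 of 20 alternatives, with an adjusted p from 0.0309 to 0.124. It ended without any 1 of the DMSO or R4VPL3-1 libraries (0.0536 to 0.124), without VHL-r replicate 2 (0.0627), and with TMM scaling (0.0517) or edgeR (0.0537). The other 7 lid genes lay between -0.069 (PSMD11) and 0.080 (PSMD3) in R4VPL3-1 and were not called in any contrast.

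The lowest adjusted p of the family, against DMSO in either treatment, belonged to an assembly chaperone. PSMG3 (ENSG00000157778, chr7:1567332-1571005, minus strand, GRCh38), which works with PSMG4 as a chaperone of the alpha ring, fell in both treatments. It had 1348, 1379 and 1359 normalized counts in the DMSO libraries, 1124, 1179 and 1261 in VHL-r, and 1145, 1269 and 1147 in R4VPL3-1. All 6 treated libraries were below all 3 DMSO libraries, and the treated groups overlap. On the log2 scale the change was -0.200 ± 0.060 (SE, n = 3 per group) in R4VPL3-1 with a limma adjusted p of 0.0175, and -0.199 ± 0.060 in VHL-r with an adjusted p of 0.0222. Between the compounds the difference was -0.001, with a 95% interval of -0.126 to 0.124. The call in R4VPL3-1 was kept in 17 of 20 alternatives, and lost without DMSO replicate 2 (adjusted p = 0.0651), R4VPL3-1 replicate 1 (0.0804) or R4VPL3-1 replicate 3 (0.0550). In VHL-r it was kept in 16 of 20, and lost without DMSO replicate 2 (0.0798), DMSO replicate 3 (0.0509), VHL-r replicate 1 (0.106) or VHL-r replicate 2 (0.0763).

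Its partner was not called. PSMG4 had 435, 473 and 498 normalized counts in the DMSO libraries, 455, 501 and 507 in VHL-r, and 528, 527 and 499.96 in R4VPL3-1, and all R4VPL3-1 libraries were above all DMSO libraries. The log2 fold change was 0.147 in R4VPL3-1 (95% interval -0.016 to 0.309, limma adjusted p = 0.188) and 0.058 in VHL-r (adjusted p = 0.681). PSMG1 and PSMG2, the other pair of core chaperones, had log2 fold changes of -0.008 and -0.016 in R4VPL3-1. PSMD5, a chaperone of the ATPase ring, had 2286, 2387 and 2357 normalized counts in the DMSO libraries, 2262, 2348 and 2204 in VHL-r, and 2137, 2207 and 2123 in R4VPL3-1. Its log2 fold change of -0.120 in R4VPL3-1 was close to that of PSMD12, but with a limma adjusted p of 0.0713 it did not pass.

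The third gene that fell was an activator. PSME3 (ENSG00000131467, chr17:42824385-42843760, plus strand, GRCh38) encodes PA28gamma, the nuclear cap that opens the core to substrates without ubiquitin. It had 13843, 13616 and 12975 normalized counts in the DMSO libraries, 12792, 12799 and 12356 in VHL-r, and 12525, 12599 and 12235 in R4VPL3-1. All treated libraries lay below all DMSO libraries, and R4VPL3-1 and VHL-r overlap. PSME3 changed by -0.114 ± 0.040 (SE, n = 3 per group) on the log2 scale in R4VPL3-1, with a limma adjusted p of 0.0424, and -0.091 in VHL-r with 0.124. Between the compounds it was -0.022 (95% interval -0.106 to 0.061). The call held in 9 of 20 alternatives (adjusted p from 0.0245 to 0.155), and ended without DMSO replicate 1 (0.155) or 2 (0.140), VHL-r replicate 2 (0.0671), any of the R4VPL3-1 replicates (0.0704 to 0.0985), with TMM scaling (0.0519) and with edgeR (0.0551). The other activators PSME1, PSME2 and PSME4 and the inhibitor PSMF1 were not called in any contrast. The name sharers PSMC3IP, a recombination factor, and PSME3IP1, which binds PSME3, were not called either. PSME3IP1 had 2821, 2908 and 2755 normalized counts in the DMSO libraries, 2931, 2878 and 2873 in VHL-r, and 2799, 2665 and 2750.3 in R4VPL3-1, and its difference between the compounds was -0.080 on the log2 scale (limma adjusted p = 0.625).

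Of the 12 family members with an antioxidant response element core in the promoter window, PSMD12 was the member called in R4VPL3-1, and it fell. The median log2 fold change of the 12 was -0.014 in R4VPL3-1 and -0.028 in VHL-r, beside -0.027 and -0.025 for the 27 members with a window and no such motif.

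Genes known to act with the proteasome were taken from 3 lists, and their counts are to be read against the 13.1% of all genes called higher and 11.8% called lower in R4VPL3-1, and 10.3% and 9.51% in VHL-r. No test of a list against all genes was made. Among 12 genes for subunits and bound proteins without a PSM symbol, 2 rose and 1 fell in R4VPL3-1 and likewise in VHL-r, and none passed between the compounds by limma or any alternative, with the smallest unadjusted limma p at 0.224 (UBE3C). These shares are near those of all genes. PITHD1, which shares a domain with the proteasome-bound TXNL1, had 1385, 1332 and 1364 normalized counts in the DMSO libraries, 1986, 2003 and 1886 in VHL-r, and 2042, 2045 and 1993 in R4VPL3-1. All 6 treated libraries were far above DMSO, and the log2 fold change was 0.575 in R4VPL3-1 and 0.525 in VHL-r (limma adjusted p = 1.80e-08 and 1.11e-07). AKIRIN2, which brings proteasomes into the nucleus, rose by 0.257 and 0.326 on the log2 scale (adjusted p = 0.0021 and 0.000281). FBXO7, which binds the inhibitor PSMF1, fell by 0.175 and 0.160 (adjusted p = 0.0199 and 0.0403). Leaving out DMSO replicate 2 or 3, or replicate 1 or 2 of R4VPL3-1, ended its call in R4VPL3-1 (adjusted p from 0.0685 to 0.0926). In VHL-r its call ended without DMSO replicate 2 or 3, VHL-r replicate 1 or 2 or R4VPL3-1 replicate 2 (adjusted p from 0.0515 to 0.198). The subunits ADRM1 and SEM1, and POMP, which matures the core, were not called, with log2 fold changes of -0.054, -0.051 and -0.115 in R4VPL3-1. POMP passed in R4VPL3-1 without DMSO replicate 3 (limma adjusted p = 0.0417) or R4VPL3-1 replicate 3 (0.0153), and so did the deubiquitinase UCHL5 without R4VPL3-1 replicate 3 (0.0423).

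For the NRF1 axis, 12 genes were tested, of which 4 rose and 1 fell in R4VPL3-1 (13.1% and 11.8% of all genes) and 3 rose in VHL-r (10.3% of all genes). NFE2L1 itself, the factor, had 10632, 10258 and 10141 normalized counts in the DMSO libraries, 10283, 10643 and 10814 in VHL-r, and 10285, 10699 and 10551 in R4VPL3-1. Its log2 fold change was 0.023 in R4VPL3-1 and 0.033 in VHL-r, and neither passed (limma adjusted p = 0.730 and 0.649). DDI2 and NGLY1, the protease and the glycanase that process NRF1, did rise. VCP, DERL1 and DERL2 of the same list were not called in any contrast. VCP had log2 fold changes of 0.087 in R4VPL3-1 and 0.106 in VHL-r (limma adjusted p = 0.1305 and 0.0731). In VHL-r it passed with upper quartile scaling (0.0407) and scaling to the nuclear total (0.0187). DDI2 had 2246, 2225 and 2294 normalized counts in the DMSO libraries, 3012, 2829 and 2775 in VHL-r, and 2591, 2530.03 and 2929 in R4VPL3-1, a log2 fold change of 0.248 in R4VPL3-1 and 0.348 in VHL-r (adjusted p = 0.0019 and 8.74e-05). NGLY1 had 1047, 1068 and 953 normalized counts in the DMSO libraries, 1247, 1192 and 1117 in VHL-r, and 1285, 1263 and 1226 in R4VPL3-1, with log2 fold changes of 0.299 and 0.213 (adjusted p = 0.000924 and 0.0166), the latter not called without DMSO replicate 3 (0.0987), VHL-r replicate 1 (0.0835) or VHL-r replicate 2 (0.0622). In R4VPL3-1 the others were MAFF, a small MAF partner, and CEBPB, which rose by 0.446 and 0.466 on the log2 scale (adjusted p = 7.24e-05 and 0.0017), and MAFK, another partner, which fell by 0.268 (adjusted p = 0.0259). MAFF was the gene of this list called between the compounds, at 0.357 (adjusted p = 0.0059, and 0.0638 without R4VPL3-1 replicate 2). MAFK was no longer called without DMSO replicate 1 (0.176) or R4VPL3-1 replicate 3 (0.134), or with the robust option of limma (0.0538). In VHL-r its log2 fold change was -0.245 (adjusted p = 0.0505), which passed without DMSO replicate 3, VHL-r replicate 2 or R4VPL3-1 replicate 1 or 3 (0.0254 to 0.0417), and with all libraries by edgeR (0.0463) and DESeq2 (0.0441), with a pseudocount of 5 (0.0486) and in the 6 libraries compared (0.0341). Between the compounds CEBPB and MAFG, a further partner, passed without R4VPL3-1 replicate 3 (0.0028 and 0.0136) but not with it (0.169 and 0.236). SYVN1, a ligase of the endoplasmic reticulum, had a log2 fold change of 0.129 in R4VPL3-1 (adjusted p = 0.0717), and passed without that library (0.0239) as well as with TMM scaling (0.0482), upper quartile scaling (0.0347), scaling to the nuclear total (0.0439) and edgeR (0.0447). In VHL-r the third gene was SEL1L, an adaptor of degradation from the endoplasmic reticulum, at 0.157 (adjusted p = 0.0340), not called without any 1 of the DMSO libraries or VHL-r replicate 1 or 2 (0.0751 to 0.119).

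Among 17 genes for ubiquitin activation, shuttling and extraction, 4 rose in R4VPL3-1, where 13.1% of all genes did, and 2 in VHL-r, where 10.3% did, the latter near the share of all genes. The largest change of this list was that of ZFAND2A, a zinc finger protein that binds the proteasome and is known as a target of heat shock factor. Its promoter window is the last shown above. It had 471, 491 and 487 normalized counts in the DMSO libraries, 480.3, 484 and 478 in VHL-r, and 1700.3, 1301 and 914 in R4VPL3-1. The VHL-r libraries lay within the DMSO range, while the R4VPL3-1 libraries were all higher and spread widely. The log2 fold change was 1.39 ± 0.13 (SE, n = 3 per group, limma adjusted p = 8.15e-08) in R4VPL3-1, -0.006 in VHL-r (adjusted p = 0.984) and 1.39 between the compounds (adjusted p = 7.07e-07). This was kept in all 20 alternatives, with the largest adjusted p at 0.0015 against DMSO and 0.0129 against VHL-r. SQSTM1, the autophagy receptor that also carries ubiquitinated cargo, had 16454, 16804 and 16160.1 normalized counts in the DMSO libraries, 18133, 19441 and 19376 in VHL-r, and 24902, 23785 and 21342 in R4VPL3-1. The groups form a ladder without overlap, with log2 fold changes of 0.50 in R4VPL3-1, 0.204 in VHL-r and 0.296 between them (adjusted p = 1.52e-07, 0.0053 and 0.0011). ZFAND5, which activates the proteasome, rose in both treatments, by 0.248 and 0.256 on the log2 scale (adjusted p = 5.92e-05 and 5.66e-05). UFD1 passed in R4VPL3-1 at 0.130 (adjusted p = 0.0447), a call kept in 12 of 20 alternatives that ended without any 1 of the DMSO libraries, VHL-r replicate 2 or R4VPL3-1 replicate 1 or 2 (adjusted p from 0.0624 to 0.160). The shuttle factors UBQLN1, UBQLN2 and UBQLN4 were not called in any contrast.

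**Figure D5:**
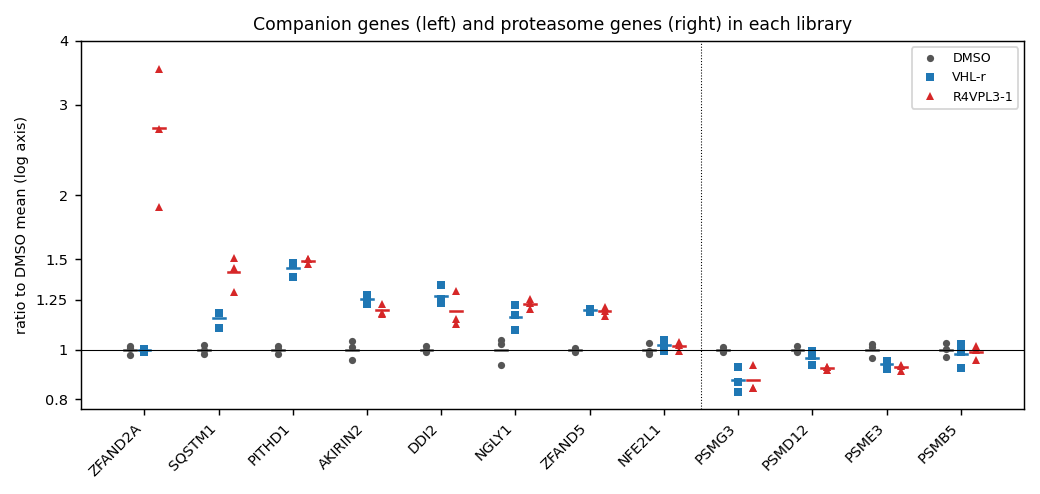
Ratio of each library to the mean of the 3 DMSO libraries, on a log axis, for 8 companion genes and 4 family members. Points are libraries and bars group means. ZFAND2A is raised in the R4VPL3-1 libraries and not in those of VHL-r, PITHD1, AKIRIN2, DDI2, NGLY1 and ZFAND5 in both treatments, and PSMG3, PSMD12, PSME3 and PSMB5 lie near 1.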

How the data were processed

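RNA from 9 cultures of A375R was enriched for poly(A), made into directional libraries and sequenced as single reads of 100 bases. STAR was used by the authors for alignment to GRCh38 and htseq-count (reverse mode) for gene counts, and the deposited signal is these counts over DESeq2 1.36.0 size factors. Every value above 0 came out as a whole number of reads (100% in the lowest library, within rounding), which gave the totals. The main test was limma 3.58.1 (R 4.3.3) on log2(value + 1), trend option, 15230 genes with a mean of at least 10, 9 libraries in a single-factor fit, Benjamini-Hochberg adjusted p of at most 0.05. Fold changes are on that scale. Alternatives were pseudocounts of 0.1 and 5, no filter, a mean of at least 50, other scalings, and edgeR 4.0.16 and DESeq2 1.42.0 on recovered reads. The others were the robust option of limma, only the 6 libraries compared, and each library left out. These make up the 20 alternatives of the tallies per gene. Fits with a replicate block, by limma and by DESeq2, were run as well and are not among the 20. The main limma fit was tested on simulated data, and the alternatives were not. Members given with every library were the called ones, the 6 of largest fold change per contrast, and PSMB5, PSMB6 and PSMB7. PSMD5, PSMD6 and the companion and noncoding genes shown in this way were chosen after their values were seen. Levels per 1000 bases used canonical transcripts of GENCODE release 44 (not the authors' annotation release), which held 62639 of the 62710 genes. The members and the 3 companion lists were chosen with earlier results of these data known.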

Additional observations from a re-analysis of the deposited data

How the results depend on the processing

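The count of 0 members called higher held in each of the 3 contrasts under every alternative, and so did the 0 called lower between the compounds. The 3 members called lower in R4VPL3-1 against DMSO became 1 with no filter, TMM scaling, upper quartile scaling and edgeR, 0 at an adjusted p of at most 0.01, and 0 to 3 with 1 library left out. The 1 called lower in VHL-r became 0 at an adjusted p of at most 0.01, and 0 to 1 with 1 library left out. In none of these cases was the cause tested. With the replicate number as a block the counts were 3, 1 and 0. The numbers were not taken to pair the libraries, since 2 of the 9 pairs of libraries with the same number had deviations correlated above 0.1 (r from -0.006 to 0.121), although 6 of 9 libraries correlated best with their own number. The median fold change of the family kept its sign against DMSO under every alternative, and lay between -0.039 and -0.0084 in R4VPL3-1 and between -0.049 and -0.006 in VHL-r. Of the uncalled members, 1 of 42 in R4VPL3-1 (PSMB8) and none of the 44 in VHL-r passed under an alternative. The 95% intervals reached a median of 0.097 to either side on the log2 scale, and what depth or more libraries would change in them was not tested. RNA at 1 time point gives neither protein nor proteasome activity.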

Other observations

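The noncoding genes named after family members were not part of the set. Those with a mean of at least 10 normalized counts, apart from a pseudogene on chromosome Y, were read afterwards in the same fit. The processed pseudogene PSMC1P1 (mean 35.9) was not called in any contrast. Its log2 fold change was 0.293 in R4VPL3-1 (limma adjusted p = 0.406) and 0.085 in VHL-r (0.856). The antisense RNAs of the lid gene PSMD6 rose in both treatments. PSMD6-AS2 (ENSG00000239653, chr3:64004022-64012148, plus strand, GRCh38) had 49, 31.5 and 47.7 normalized counts in the DMSO libraries, 190.1, 172 and 144 in VHL-r, and 261, 162 and 173 in R4VPL3-1. The lowest treated library was far above the highest DMSO library. Its log2 fold change was 2.19 ± 0.19 (SE, n = 3 per group) in R4VPL3-1 and 1.98 ± 0.19 in VHL-r (limma adjusted p = 1.97e-08 and 1.38e-07). PSMD6-AS1 (ENSG00000243410, chr3:64011964-64016246, plus strand) had 10.9, 20.7 and 18.2 normalized counts in the DMSO libraries, 55, 75.6 and 49.2 in VHL-r, and 99, 76.6 and 63.2 in R4VPL3-1, with log2 fold changes of 2.22 ± 0.25 and 1.81 ± 0.25 (adjusted p = 9.23e-07 and 1.77e-05). Both were kept in all 20 alternatives in each treatment. Between the compounds neither was called (adjusted p = 0.841 and 0.685). PSMD6 itself, on the minus strand, had 5553, 5595 and 5500.3 normalized counts in the DMSO libraries, 5574, 5405 and 5363 in VHL-r, and 5347, 5334 and 5324 in R4VPL3-1, a log2 fold change of -0.057 in R4VPL3-1 and -0.027 in VHL-r, and it was not called.

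PSMG3-AS1, which overlaps PSMG3 on the other strand, had 73.5, 80.7 and 84.2 normalized counts in the DMSO libraries, 90.1, 66.2 and 71.7 in VHL-r, and 74.7, 73.6 and 92.1 in R4VPL3-1. Its log2 fold changes of 0.007 in R4VPL3-1 and -0.074 in VHL-r were not called (limma adjusted p = 0.985 and 0.819), while PSMG3 fell. PSMD7-DT, a transcript that runs away from PSMD7, had 9.99, 3.94 and 7.1 normalized counts in the DMSO libraries, 9.01, 12.6 and 8.19 in VHL-r, and 14, 15.9 and 15 in R4VPL3-1, so that it was counted from few reads. It passed in R4VPL3-1 at 1.07 (limma adjusted p = 0.0425), and the call was lost without DMSO replicate 2 (0.197) or 3 (0.0663), without any of the R4VPL3-1 replicates (0.0827 to 0.109) and with DESeq2 (0.197).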
